A study of Rattus norvegicus with 78 samples.

Results

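The cyclic AMP signalling genes are 54 genes whose symbols on the array name an adenylyl cyclase, a cyclic nucleotide phosphodiesterase, a subunit of protein kinase A (PKA), an A-kinase anchoring protein (AKAP), or CREB and its relatives. Symbols were matched by their letters (Adcy, Pde, Prkac, Prkar, Akap and Creb), with Pde10a left out by rule. Pde10a, with mean intensities of 535.4 in P/FC and 297.3 in HIP (the regions described below), was used as a striatal marker instead. The match gave 61 genes, and 54 of these had a mean intensity above 30 over all 78 arrays. Each gene was read from 1 probeset, the brightest of its own, out of 31042 probesets in all. They comprise 7 cyclases, 17 phosphodiesterases, 2 catalytic and 4 regulatory subunits of PKA, 13 AKAPs and 11 CREB genes. Because the choice went by symbol, a few members have other known roles, among them the cyclic GMP-specific Pde5a and Pde9a. Just inside the mean of 30 were Creb3l1 (32.3), Creb3l4 (32.9), Adcy10 (33.0) and Adcy8 (34.3), and just outside it were Pde3a (24.8), Akap3 (22.4) and Adcy4 (21.6).

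RNA was taken from hippocampus (HIP) and from the whole frontal lobe, called prefrontal/frontal cortex (P/FC), of the right hemisphere. The animals were adult males. Flinders Sensitive Line (FSL) rats, a model of depression-like behaviour, were compared with Flinders Resistant Line (FRL) rats, and both lines descend from Sprague-Dawley rats by selective breeding for their response to a cholinesterase inhibitor. All animals had gone through a forced swim test before the tissue was taken, and no age is given in the labels. Each region was measured with 9 FSL and 12 FRL arrays in cohort 1 and 8 FSL and 10 FRL arrays in cohort 2, so 17 FSL and 22 FRL arrays in each region. Values are intensities on a linear scale after background subtraction and normalisation, and the median of an array lay between 60.8 and 66.0 in P/FC and between 56.8 and 63.0 in HIP. Samples of the 2 regions were handled apart from each other, which leaves region and handling confounded (they cannot be told apart), and the labels do not say which 2 arrays came from 1 animal or which labelling batch an array belonged to. In tissue, fewer cells of a type and less RNA per cell cannot be told apart. All 5 hippocampal neuron markers tested were higher in HIP, while of 2 cortical neuron markers tested 1 was higher in P/FC and 1 in HIP. Tbr1, Foxp2 and Cux2, also cortical neuron markers, were too dim in HIP to be tested between the regions. Their mean intensities were 72.5, 130.5 and 218.3 in P/FC, against 25.4, 24.7 and 34.2 in HIP.

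Cyclic AMP is made by adenylyl cyclases, which receptors switch on or off through G proteins, and is broken down by phosphodiesterases. It releases the catalytic subunits of PKA from regulatory subunits, AKAPs tether the holoenzyme near its substrates, and PKA phosphorylates the transcription factor CREB, which binds the cyclic AMP response element of its target genes. In forebrain neurons the pathway is known for its part in synaptic plasticity, memory and the response to antidepressant drugs.

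A member was tested in a region where 50% or more of the FSL arrays, and of the FRL arrays, exceeded an intensity of 30. This left 51 members in HIP and 53 in P/FC, with 50 in both. Adcy10 was left out in P/FC, and Akap4, Creb3l1 and Creb3l4 in HIP. Differences are on the log2 scale, FSL minus FRL over both cohorts with equal weight, and a member was called higher or lower at a limma p under 0.05 after Benjamini-Hochberg adjustment over all kept probesets of the region. In P/FC, 7 members were higher in FSL, 7 were lower and 39 did not pass, which is 26.4% of 53 members called, where 18.6% of all 22370 probesets were called (9.76% higher, 8.86% lower). In HIP, 2 members were higher in FSL, 5 were lower and 44 did not pass, which is 13.7% of 51 members, where 7.33% of all 21630 probesets were called (3.20% higher, 4.13% lower). The median difference of the members was 0.02 in P/FC and 0.01 in HIP, against 0.002 and -0.002 over all probesets. The called differences were small in size, between -0.32 and 0.48 in P/FC and between -0.23 and 0.34 in HIP.

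**Figure D1:**
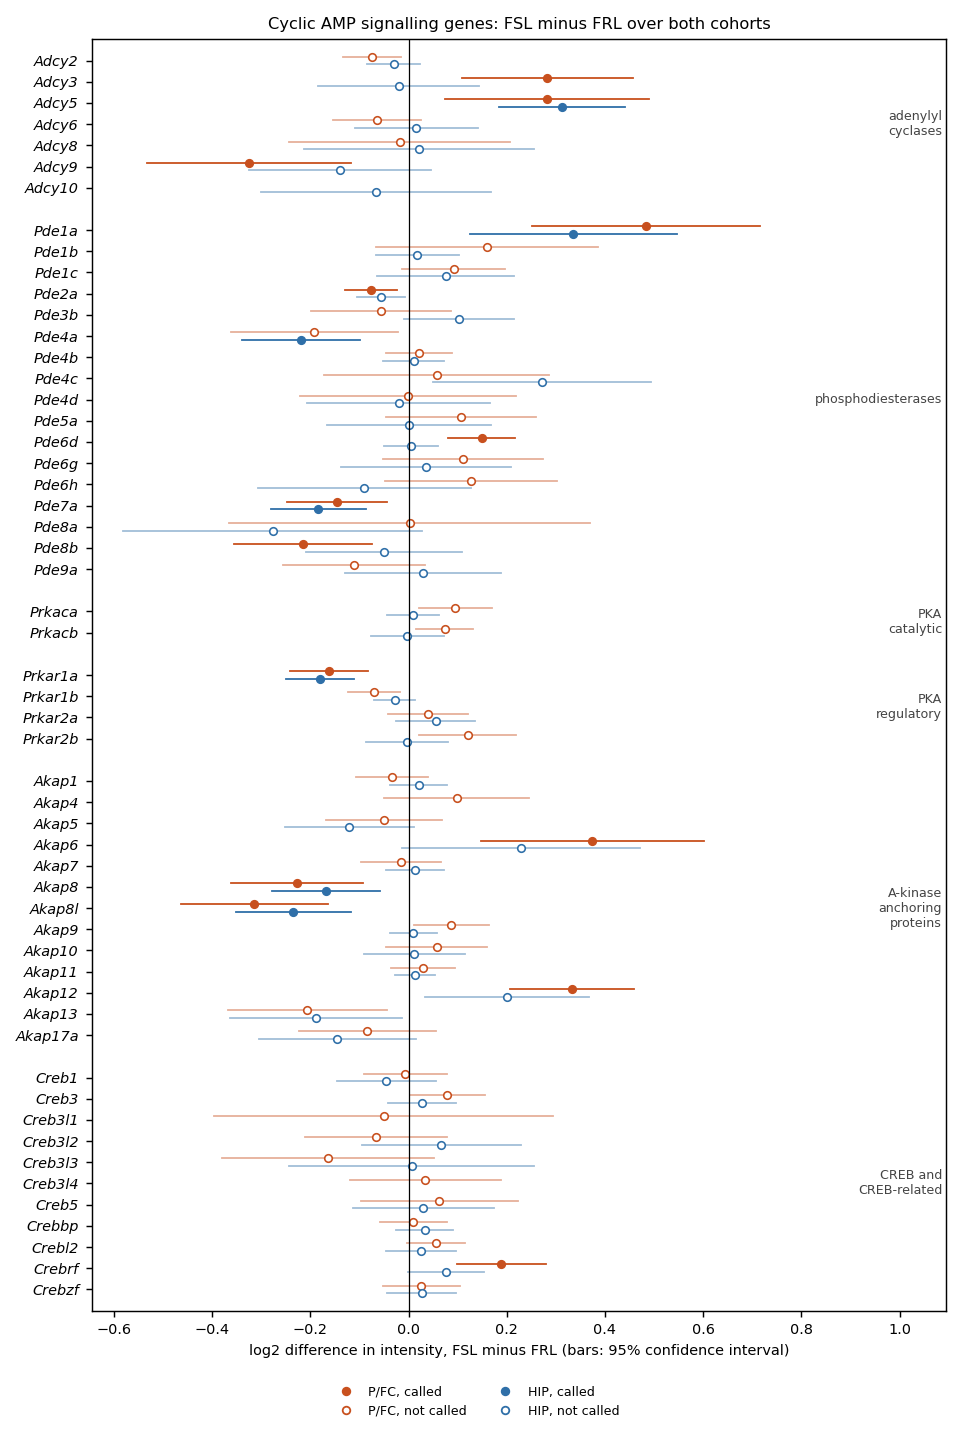
Log2 difference in intensity (x axis), FSL minus FRL over both cohorts, for each member (y axis) in P/FC and in HIP, with bars for the 95% confidence interval from limma. In P/FC 7 members lie higher and 7 lower with an adjusted p under 0.05, and in HIP 2 higher and 5 lower, with Pde1a the highest called member of both regions (0.48 and 0.34).

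Called in both regions with the same sign were 6 members, namely Adcy5 and Pde1a on the higher side and Prkar1a (on the probeset used, as its other probesets gave the opposite sign), Akap8l, Akap8 and Pde7a on the lower side. These are 42.9% of the members called in P/FC and 85.7% of those called in HIP. The background is high, since 73.2% of all probesets called in HIP and kept in both regions were also called with the same sign in P/FC, and 5.48% of 20963 probesets were called in both. The calls of the 6 members held unequally under the alternative settings given at the end. Adcy5 in P/FC stayed called in 5 of 13 and Akap8 in HIP in 6 of 14. Pde7a in P/FC stayed called in 7 of 12 and Pde1a in HIP in 8 of 14. Every other call of the 6 members held in 10 or more. The methods of the study required an unadjusted p of 0.05 in each cohort. By that rule, with the same sign in both cohorts, 7 members were counted in P/FC (5 higher, 2 lower, where 9.87% of all probesets were counted) and 4 in HIP (1 higher, 3 lower, where 4.85% were counted). The members counted in P/FC were Adcy3, Pde1a, Pde6d, Akap12 and Crebrf on the higher side and Prkar1a and Akap8l on the lower side. In HIP they were Adcy5 on the higher side, and Prkar1a, Akap8l and Pde7a on the lower side.

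Some measures of RNA quality and of cell types differed between the lines along with these genes. The ratio of 3' to 5' Gapdh probesets, on the log2 scale, averaged 0.74 in FSL and 0.83 in FRL in P/FC of cohort 1 (two-sided exact permutation p = 0.00743, adjusted over 48 tests 0.0441) and 0.82 in FSL and 0.92 in FRL in cohort 2 (exact permutation p = 0.0291, adjusted 0.0932). The same ratio for Actb averaged 0.60 in FSL and 0.72 in FRL in HIP of cohort 1 (exact permutation adjusted p = 0.00719), and 0.73 in FSL and 0.82 in FRL in cohort 2 (exact permutation adjusted p = 0.0300). In HIP the Gapdh ratio did not pass in cohort 1 or 2 (exact permutation adjusted p = 0.294 and 0.402). In P/FC the Actb ratio did not pass in either cohort (exact permutation adjusted p = 0.115 and 0.871). Of 7 astrocyte markers, 6 were lower in FSL in P/FC and 5 in HIP, and none was higher. Their summed intensity lay between 7195 and 9488 in FSL and between 7305 and 11493 in FRL in P/FC, and between 10125 and 11166 in FSL and between 10337 and 12557 in FRL in HIP, and no marker was at 0. The mean z score of the list was lower in FSL in both cohorts of HIP (exact permutation adjusted p = 0.00196 and 0.0162) and in cohort 2 of P/FC (0.0162), while cohort 1 of P/FC did not pass (0.0549). Of 6 endothelial markers, 4 were lower in FSL in P/FC and 1 in HIP, and their summed intensity lay between 918 and 1252 in FSL and between 1022 and 1709 in FRL in P/FC. The endothelial score averaged -0.63 in FSL and 0.40 in FRL in P/FC of cohort 1 (exact permutation adjusted p = 0.0300) and -0.50 in FSL and 0.48 in FRL in cohort 2 (0.0441). Of 6 neuronal markers, 3 were higher in FSL in P/FC and 2 in HIP, and in cohort 2 their score averaged 0.53 in FSL and -0.22 in FRL in P/FC (exact permutation adjusted p = 0.00658) and 0.71 in FSL and 0.17 in FRL in HIP (0.0441). In cohort 1 the neuronal score did not pass in P/FC (exact permutation adjusted p = 0.283) or in HIP (0.266). The endothelial score did not pass in HIP of cohort 1 or 2 (exact permutation adjusted p = 0.245 and 0.143). No endothelial or neuronal marker was at 0. With the astrocyte score as a covariate, added after seeing the data, 1 member stayed called in P/FC (Akap12) and 1 in HIP (Pde7a). With the Gapdh ratio as a covariate 1 member stayed called in P/FC (Akap12), and with the Actb ratio 2 stayed called in HIP (Akap8l and Prkar1a). How calls over all probesets moved with these covariates is not given here, so the losses are not shown to be particular to the members. The summed intensity of 4 choroid plexus markers ran from 204 to 13841 over the HIP arrays, and without the 6 arrays of highest score 5 members stayed called, while Pde1a (0.38, adjusted p = 0.0580) and Akap8 (-0.17, adjusted p = 0.103) kept their size and did not pass. The part of RNA quality and of astrocyte, endothelial, neuronal or choroid plexus RNA in the differences below was not tested.

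Of the adenylyl cyclases, FSL rats had 2 higher and 1 lower in P/FC, and 1 higher in HIP. Adcy5, a cyclase inhibited by calcium and abundant in striatal neurons, had intensities of 185.9, 278.1 and 384.1 (lowest, median, highest) in P/FC of FSL rats, against 167.1, 199.8 and 328.9 in FRL rats. In HIP it lay at 138.2, 154.1 and 175.0 in FSL rats, against 85.9, 129.8 and 172.4 in FRL rats. The ranges overlapped in both regions, and in HIP no FSL array came down to the FRL median. The difference was 0.28 (SE 0.10, limma adjusted p = 0.0491) in P/FC and 0.31 (SE 0.06, adjusted p = 0.00102) in HIP. In HIP it was 0.27 in cohort 1 and 0.35 in cohort 2, and in P/FC 0.48 in cohort 1 and 0.08 in cohort 2, where the difference between cohorts did not pass. The P/FC call is at the threshold, and at a value of 0.28 it did not pass without the filter (adjusted p = 0.0682), with quantile normalisation (0.0546) or without variance moderation (0.0578).

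Adcy3, a cyclase of olfactory neurons and of primary cilia, had intensities of 116.1, 188.3 and 232.0 in P/FC of FSL rats, against 97.5, 152.8 and 238.9 in FRL rats. The ranges overlapped widely, and the difference was 0.28 in P/FC (SE 0.09, limma adjusted p = 0.0182; 0.26 in cohort 1 and 0.31 in cohort 2) and -0.02 in HIP (adjusted p = 0.923). Adcy9, a widely expressed cyclase, had intensities of 23.8, 51.3 and 78.7 in P/FC of FSL rats, against 43.6, 67.1 and 94.4 in FRL rats. It was lower in P/FC by a difference of -0.32 (SE 0.10, adjusted p = 0.0233), and its HIP value of -0.14 did not pass (adjusted p = 0.411). The calcium-stimulated Adcy8, and Adcy2, Adcy6 and Adcy10, passed in no region where they were tested, with values between -0.08 and 0.02.

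Of 17 phosphodiesterases, FSL rats had 2 higher and 3 lower in P/FC, and 1 higher and 2 lower in HIP. Pde1a, a calcium- and calmodulin-dependent enzyme that breaks down cyclic GMP and cyclic AMP, had intensities of 112.3, 158.4 and 221.2 in P/FC of FSL rats, against 73.7, 109.3 and 183.6 in FRL rats. In HIP it lay at 120.6, 143.3 and 202.7 in FSL rats, against 49.4, 123.1 and 161.0 in FRL rats. In P/FC the lowest FSL array lay above the FRL median, although the ranges overlapped. The difference was 0.48 in P/FC (SE 0.12, limma adjusted p = 0.00296; 0.46 in cohort 1 and 0.51 in cohort 2) and 0.34 in HIP (SE 0.10, adjusted p = 0.0391; 0.43 and 0.24).

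Pde7a, a cyclic AMP-specific enzyme, had intensities of 62.3, 73.7 and 91.6 in P/FC of FSL rats, against 68.8, 83.2 and 98.3 in FRL rats. In HIP it lay at 41.6, 57.8 and 68.0 in FSL rats, against 54.8, 67.8 and 81.3 in FRL rats. The ranges overlapped, and in HIP the highest FSL array was close to the FRL median. It was lower by -0.15 in P/FC (SE 0.05, limma adjusted p = 0.0360) and by -0.18 in HIP (SE 0.05, adjusted p = 0.0115). Pde4a, a cyclic AMP-specific enzyme inhibited by rolipram, was lower in HIP, with 64.0, 85.9 and 135.6 in FSL rats against 65.8, 107.9 and 133.8 in FRL rats, a difference of -0.22 (SE 0.06, adjusted p = 0.0169). Its P/FC value of -0.19 was of similar size and did not pass (adjusted p = 0.107).

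Called in P/FC alone were 3 phosphodiesterase genes. Pde6d, which in spite of its name is a chaperone of prenylated proteins, had intensities of 280.3, 324.9 and 362.6 in FSL rats, against 246.7, 291.6 and 317.0 in FRL rats. Its difference was 0.15 (SE 0.03, limma adjusted p = 0.00190; 0.17 in cohort 1 and 0.13 in cohort 2), and in HIP it was 0.01 (adjusted p = 0.938). Pde8b, a cyclic AMP-specific enzyme of high affinity, was lower by -0.21 (SE 0.07, adjusted p = 0.0255), with 66.0, 99.8 and 127.4 in FSL rats against 64.8, 112.7 and 133.5 in FRL rats. Its dimmer probeset was at 0.05 (adjusted p = 0.829), and the mean of both did not pass (-0.08, adjusted p = 0.449). Pde2a, which cyclic GMP stimulates, was lower by -0.08 (SE 0.03, adjusted p = 0.0365). The remaining phosphodiesterase members passed in neither region on the probesets used. Among them were Pde4b (0.02 in P/FC and 0.01 in HIP) and Pde4d (-0.00 and -0.02), 2 other targets of rolipram. A dimmer probeset of Pde1b was higher in P/FC (0.52, SE 0.15, adjusted p = 0.0153), where the probeset used was at 0.16 (adjusted p = 0.342).

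Of the PKA subunits, the regulatory subunit Prkar1a was called in both regions and no other was called in either. Prkar1a, the type I alpha subunit that holds the catalytic subunits inactive, had intensities of 2097, 2250 and 2515 in P/FC of FSL rats, against 2033, 2616 and 2884 in FRL rats. In HIP it lay at 1980, 2043 and 2153 in FSL rats, against 1989, 2338 and 2681 in FRL rats. All FSL arrays lay below the FRL median in both regions, while the lowest FRL arrays came down among the FSL arrays. The difference was -0.16 in P/FC (SE 0.04, limma adjusted p = 0.00316) and -0.18 in HIP (SE 0.03, adjusted p = 0.000427). It was -0.16 in cohort 1 and -0.17 in cohort 2 in P/FC, and -0.16 and -0.20 in HIP. The FRL arrays spread more widely, with an SD of 286 and 196 in the cohorts of P/FC and 223 and 183 in HIP, against 48.6 and 82.5 in P/FC and 46.1 and 67.5 in HIP of FSL rats.

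The other probesets of Prkar1a gave the opposite sign. The dimmest, with a mean of 740 over all arrays, had intensities of 580.7, 795.8 and 993.0 in P/FC of FSL rats, against 329.8, 681.0 and 921.2 in FRL rats, a difference of 0.31 (limma adjusted p = 0.00295). The middle one, with a mean of 1710, had 1601, 1845 and 1984 in FSL rats, against 1381, 1699 and 1972 in FRL rats, a difference of 0.12 (adjusted p = 0.00897). In HIP both were also above 0 and did not pass (0.13, adjusted p = 0.188, and 0.04, adjusted p = 0.521). The direction of Prkar1a in FSL rats therefore depended on the probeset, and the mean of its 3 probesets gave 0.09 in P/FC and -0.00 in HIP, where neither passed. Which stretch of the transcript each probeset covers is not given in the sources used here. The authors of the study do not exclude sequence polymorphisms as a source of some of their probeset differences. For the line differences given here this was not tested. Prkar1a was the only member with probesets called in both directions, although the sign differed between probesets in 7 of 21 members in P/FC and in 10 of 21 in HIP that had 2 or more kept.

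**Figure D2:**
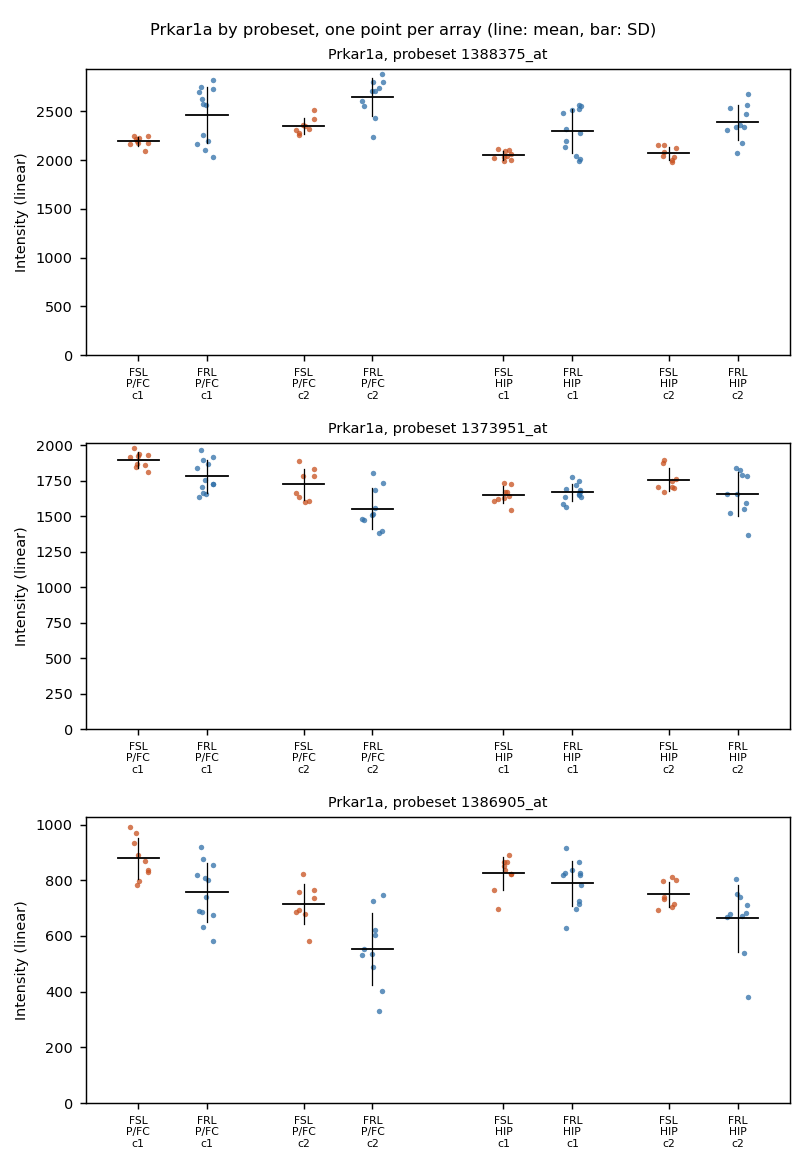
Intensity on a linear scale (y axis) of the 3 Prkar1a probesets in each array, by line, region and cohort (c1 and c2), with a line for the mean and a bar for the SD. In the top panel, the brightest probeset, the FSL arrays of HIP lie between 1980 and 2153, near the lower end of the FRL arrays (1989 to 2681), and on the dimmest probeset in P/FC they lie between 580.7 and 993.0 against 329.8 to 921.2 in FRL.

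The catalytic subunits did not pass on the probesets used. Prkaca was at 0.10 in P/FC (SE 0.04, limma adjusted p = 0.0621) and 0.01 in HIP (adjusted p = 0.894). Prkacb was at 0.07 in P/FC (SE 0.03, adjusted p = 0.0674) and -0.00 in HIP (adjusted p = 0.980), while its 2 dimmer probesets were higher in FSL in P/FC (0.21, adjusted p = 0.0135, and 0.42, adjusted p = 0.0228). The type I beta subunit Prkar1b was at -0.07 in P/FC (adjusted p = 0.0565) and -0.03 in HIP (0.477). The type II subunits were Prkar2a, at 0.04 in P/FC (0.546) and 0.06 in HIP (0.463), and Prkar2b, the main neuronal type II subunit, at 0.12 in P/FC (0.0784) and -0.00 in HIP (0.977).

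Of the AKAPs, FSL rats had 2 higher and 2 lower in P/FC, and 2 lower in HIP. The lower pair, Akap8 and Akap8l, are related nuclear proteins, of which Akap8 binds the nuclear matrix and chromatin. Their genes are next to each other on chromosome 7 with no annotated gene between them. Akap8l had intensities of 226.5, 319.3 and 455.1 in P/FC of FSL rats, against 275.8, 404.4 and 557.5 in FRL rats. In HIP it lay at 209.3, 252.9 and 314.1 in FSL rats, against 228.0, 285.1 and 435.8 in FRL rats. The ranges overlapped in each region over both cohorts, but in HIP of cohort 2 every FSL array (209.3 to 264.1) lay below every FRL array (267.4 to 385.8). The difference was -0.31 in P/FC (SE 0.07, limma adjusted p = 0.00264; -0.28 in cohort 1 and -0.35 in cohort 2) and -0.23 in HIP (SE 0.06, adjusted p = 0.00787; -0.18 and -0.29). Of its other probesets, that with a mean intensity of 165 was lower in P/FC (-0.37, adjusted p = 0.00144) and did not pass in HIP (-0.19, 0.0678), and that with a mean of 171 was at -0.00 in P/FC and 0.05 in HIP.

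Akap8 had intensities of 123.5, 194.2 and 229.1 in P/FC of FSL rats, against 166.9, 213.1 and 263.6 in FRL rats. In HIP it lay at 137.7, 199.2 and 244.0 in FSL rats, against 180.7, 217.0 and 260.0 in FRL rats. The FSL arrays reached lower and the ranges overlapped. The difference was -0.23 in P/FC (SE 0.07, limma adjusted p = 0.0136; -0.18 in cohort 1 and -0.28 in cohort 2) and -0.17 in HIP (SE 0.05, adjusted p = 0.0497; -0.05 and -0.28). In HIP the call is at the threshold, and Akap8 had the smallest unadjusted p of the members for a difference between cohorts there (0.0401, adjusted p = 1.00).

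The promoters of these neighbours are shown because the genes lie side by side and were lower together, with that of Creb1, whose product binds the cyclic AMP response element. They cover 250 bases before and 50 after the start of the gene (RefSeq, rat build GRCr8), and capitals mark the half-site of the element, TGACG or its reverse complement CGTCA, searched on both strands. Akap8l is at chr7:12012762-12013061 on the minus strand, Akap8 at chr7:11982851-11983150 on the minus strand and Creb1 at chr9:73397259-73397558 on the plus strand.
Akap8l: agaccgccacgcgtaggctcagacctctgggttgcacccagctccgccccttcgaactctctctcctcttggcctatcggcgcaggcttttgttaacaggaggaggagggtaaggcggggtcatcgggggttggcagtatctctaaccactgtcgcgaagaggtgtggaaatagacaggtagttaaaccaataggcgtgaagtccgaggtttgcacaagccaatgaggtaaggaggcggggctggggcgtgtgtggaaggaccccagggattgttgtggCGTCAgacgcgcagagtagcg
Akap8: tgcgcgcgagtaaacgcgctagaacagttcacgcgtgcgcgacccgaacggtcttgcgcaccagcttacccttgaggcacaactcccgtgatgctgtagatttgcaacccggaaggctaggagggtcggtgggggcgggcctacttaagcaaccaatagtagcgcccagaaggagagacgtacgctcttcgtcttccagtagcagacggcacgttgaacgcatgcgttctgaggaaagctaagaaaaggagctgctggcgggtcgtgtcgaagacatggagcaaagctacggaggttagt
Creb1: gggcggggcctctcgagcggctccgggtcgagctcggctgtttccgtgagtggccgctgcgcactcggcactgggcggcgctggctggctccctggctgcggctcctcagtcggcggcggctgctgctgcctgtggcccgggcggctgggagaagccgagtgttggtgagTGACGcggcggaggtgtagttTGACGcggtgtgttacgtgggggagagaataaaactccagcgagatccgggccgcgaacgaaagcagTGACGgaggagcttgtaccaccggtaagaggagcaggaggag
Akap8l held 1 half-site, 29 bases after its start, and Akap8 held none. Creb1 held 3, at 80 and 59 bases before and 8 bases after its start. Of 42 members with a promoter entry, 13 (31.0%) held a half-site in the first entry of the gene, where 21.2% of all 33469 promoter entries did. The second share includes further entries of the same gene, so the 2 sets are not alike. The full element TGACGTCA, which contains both half-site spellings, was in 1 of the 42, that of Akap17a, and in 1.83% of all promoters. A match describes the letters of the window and not a bound site.

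Akap12, a scaffold also known as gravin that joins PKA with beta-adrenergic receptors, had intensities of 139.1, 158.8 and 190.2 in P/FC of FSL rats, against 83.1, 130.7 and 169.6 in FRL rats. All FSL arrays lay above the FRL median. The difference was 0.33 (SE 0.06, limma adjusted p = 0.000251; 0.34 in cohort 1 and 0.32 in cohort 2), the smallest p of all members in P/FC, and it stayed called with the Gapdh ratio (adjusted p = 0.0172) and with the astrocyte score (0.0301) as a covariate. In HIP Akap12 was at 0.20 (adjusted p = 0.136). Akap6, an AKAP of the nuclear envelope in muscle and nerve cells, had intensities of 107.3, 147.7 and 214.0 in P/FC of FSL rats, against 54.0, 127.1 and 182.1 in FRL rats, a difference of 0.37 (SE 0.11, adjusted p = 0.0166), and was at 0.23 in HIP (adjusted p = 0.271). A second probeset did not pass for either gene in P/FC (0.08 for Akap12 and -0.05 for Akap6). The synaptic scaffold Akap5 was at -0.05 in P/FC and -0.12 in HIP, and it did not pass. A dimmer probeset of Akap11 was called higher in FSL in P/FC (0.16), where the probeset used was at 0.03 and did not pass.

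**Figure D3:**
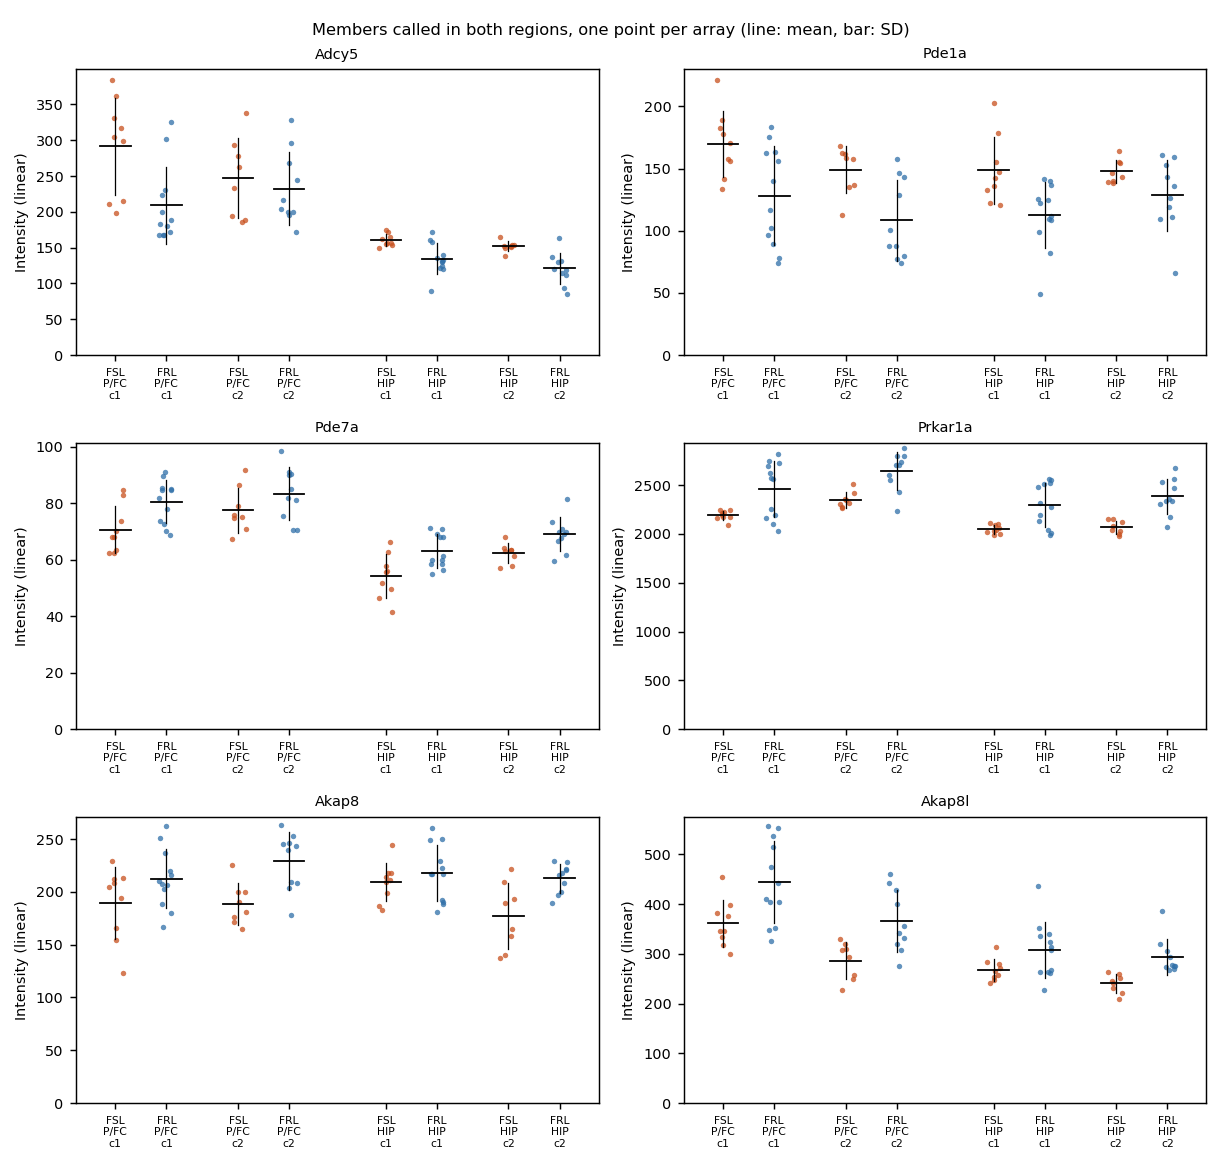
Intensity on a linear scale (y axis) of the 6 members called in both regions, 1 point per array, by line, region and cohort (c1 and c2), with a line for the mean and a bar for the SD. Adcy5 and Pde1a lie higher in FSL and Pde7a, Prkar1a, Akap8 and Akap8l lower, with overlapping ranges over both cohorts in each region, and the FSL points of Adcy5 in HIP (138.2 to 175.0) spread less than the FRL points (85.9 to 172.4).

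CREB itself did not pass between the lines in either region. Creb1 had intensities of 113.0, 152.8 and 180.3 in P/FC of FSL rats, against 112.3, 149.8 and 162.4 in FRL rats, a difference of -0.01 (95% confidence interval -0.09 to 0.08, limma adjusted p = 0.936). In HIP it was at -0.05 (-0.15 to 0.06, adjusted p = 0.668). Of 11 CREB genes 1 was called, Crebrf, a regulator of the CREB3 family. It had intensities of 156.8, 184.9 and 211.4 in P/FC of FSL rats, against 126.6, 162.0 and 197.2 in FRL rats, a difference of 0.19 (SE 0.04, adjusted p = 0.00298; 0.18 in cohort 1 and 0.20 in cohort 2). In HIP it was at 0.08 (adjusted p = 0.246), and its other probeset did not pass in either region (0.07 in P/FC and -0.11 in HIP). The CREB-binding coactivator Crebbp was at 0.01 in P/FC and 0.03 in HIP.

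Whether these differences changed with cohort or region was tested directly. No member passed for a difference between cohorts in either region, nor did any of the 22370 probesets in P/FC (1036 at an unadjusted p under 0.05) or the 21630 in HIP (936) in limma after adjustment. At an unadjusted p under 0.05 there were 4 members in P/FC, of which Akap4 (p = 0.00951) and Pde1c (p = 0.0117) had the smallest p (both adjusted p = 0.998), and 1 member in HIP, Akap8. Counts called within single cohorts were smaller, with 5 members in cohort 1 (background 7.80%) and 1 in cohort 2 (3.78%) of P/FC, and 0 in cohort 1 (2.36%, 9 members at an unadjusted p under 0.05) and 3 in cohort 2 (2.33%) of HIP. None of 50 members passed for a line difference that was larger in one region, where 0.0668% of all probesets passed, and 2 had an unadjusted p under 0.05. These were Pde6d (P/FC minus HIP 0.14, limma adjusted p = 0.279) and Adcy3 (0.30, adjusted p = 0.487), so that a call in P/FC alone is not shown to be particular to P/FC.

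Between the regions most members differed, as did most probesets. In P/FC 34 members were higher than in HIP, 3 were lower and 13 did not pass, which is 74.0% of 50, where 69.6% of all 20963 probesets were called (48.5% higher and 21.1% lower). The median difference of P/FC minus HIP was 0.19 over the members and 0.08 over all probesets. All 4 PKA regulatory subunits, 12 of 17 phosphodiesterases, 8 of 12 AKAPs, 6 of 9 CREB genes and 3 of 6 cyclases were higher in P/FC on the probesets used. Within FSL rats alone 31 members were higher and 3 lower, where 56.9% of all probesets were called (40.3% higher, 16.6% lower). Within FRL rats alone 34 were higher and 4 lower, where 60.7% were called (41.9% higher, 18.8% lower).

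Prkar2b had intensities of 453.5, 557.4 and 707.3 (lowest, median, highest) in P/FC, against 213.4, 269.2 and 333.9 in HIP. The regions did not overlap, and the difference of 1.09 (SE 0.03, limma adjusted p = 2.3e-44) was the largest of the members. Prkacb lay at 1930, 2170 and 2413 in P/FC, against 1147, 1405 and 1671 in HIP, again with no overlap (0.63, SE 0.02), while the other catalytic subunit Prkaca was at -0.02 (adjusted p = 0.333). Of the remaining regulatory subunits Prkar1b and Prkar2a were each higher by 0.38 and Prkar1a by 0.13. That of Prkar1a did not pass with quantile normalisation (0.03, adjusted p = 0.233) or as the mean of its probesets (0.03, adjusted p = 0.230), and its dimmest probeset was at -0.08 (adjusted p = 0.142). Pde8b lay at 64.8, 103.0 and 133.5 in P/FC, against 31.0, 54.1 and 74.1 in HIP (0.93, SE 0.05, and 0.71 to 0.94 under the alternative settings). The gap was smaller on its dimmer probeset, with medians of 65.4 in FRL and 65.5 in FSL rats in P/FC, against 45.7 and 46.0 in HIP. Adcy5 lay at 167.1, 216.6 and 384.1 in P/FC, against 85.9, 150.0 and 175.0 in HIP (0.76, SE 0.06). Pde1b, a calcium- and calmodulin-dependent enzyme known from striatal neurons, lay at 335.4, 497.3 and 952.7 in P/FC, against 288.6, 359.0 and 472.1 in HIP (0.64, SE 0.06). The ranges of Pde8b, Adcy5 and Pde1b overlapped between the regions. Creb1 was higher in P/FC by 0.33.

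The 3 members lower in P/FC belonged to different families. Akap13, an AKAP that is also an exchange factor for the small GTPase RhoA, had intensities of 44.9, 89.5 and 114.4 in P/FC, against 61.8, 175.8 and 210.1 in HIP, a difference of -0.90 (SE 0.06). The calcium-stimulated cyclase Adcy8 lay at 15.1, 30.1 and 54.8 in P/FC, against 21.8, 36.2 and 70.9 in HIP, a difference of -0.35 (SE 0.08) near the intensity minimum of 30. Crebbp lay at 220.9, 252.6 and 341.7 in P/FC, against 227.4, 271.8 and 340.5 in HIP, a difference of -0.10 (SE 0.02) with nearly complete overlap.

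**Figure D4:**
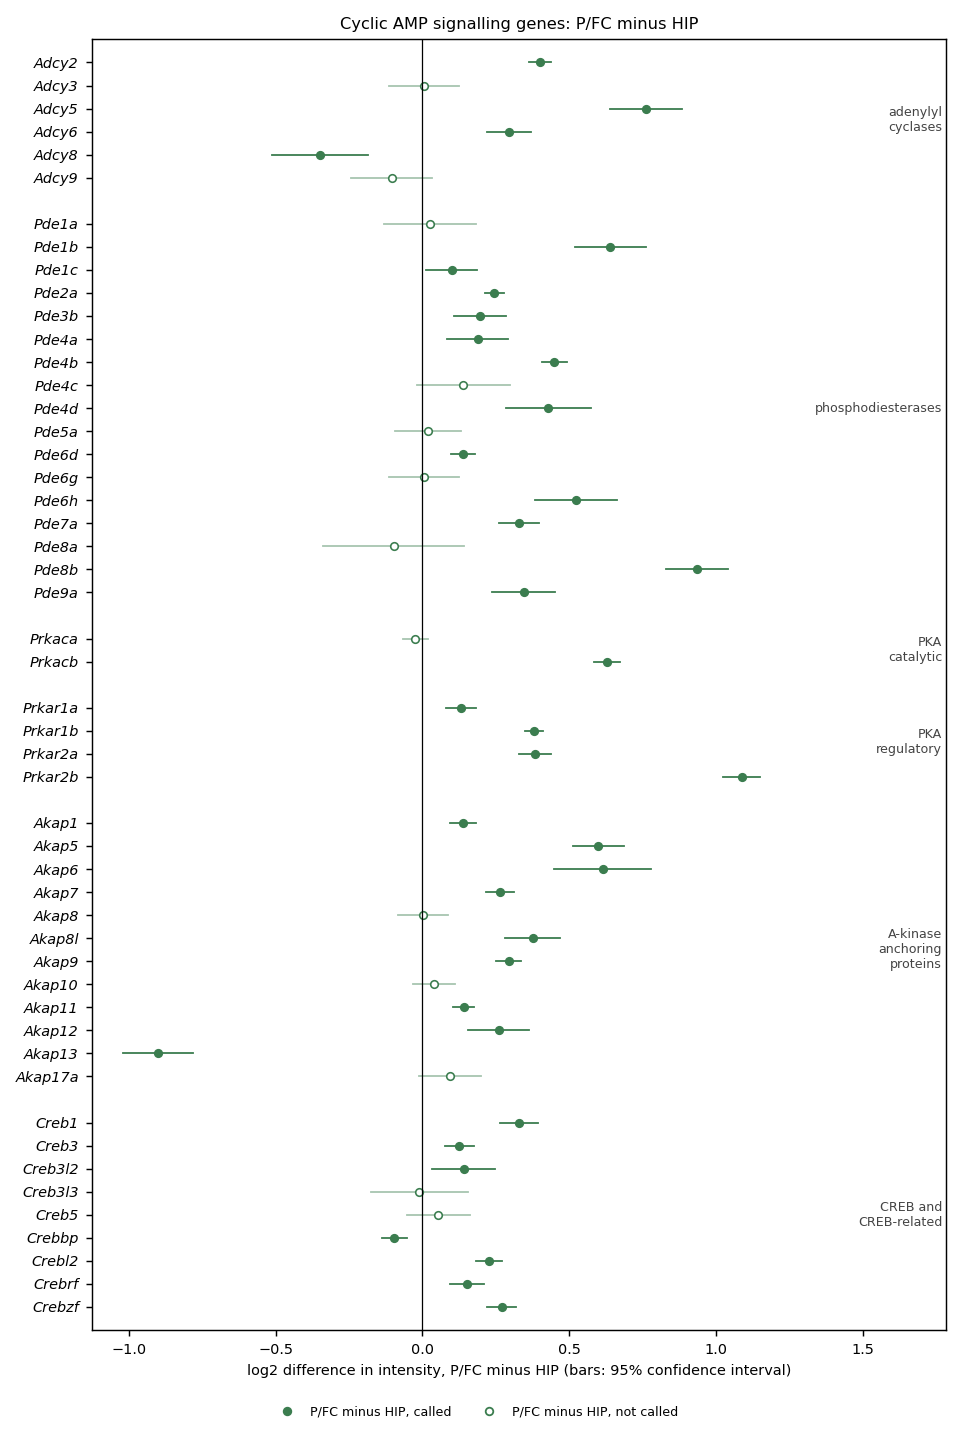
Log2 difference in intensity (x axis), P/FC minus HIP over both lines and cohorts, for each member kept in both regions (y axis), with bars for the 95% confidence interval from limma. Prkar2b (1.09) and Pde8b (0.93) are farthest to the right and Akap13 (-0.90) farthest to the left, and 34 of 50 members are called higher in P/FC.

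The P/FC samples differed in their level of striatal markers, and several members moved with it. The summed intensity of 9 striatal projection neuron markers lay between 1450 and 6289 in P/FC and between 920 and 1346 in HIP, with no marker at 0. In P/FC of cohort 1 its median was 4598 in FSL and 1856 in FRL, and in cohort 2 it was 2896 in FSL and 2606 in FRL. The mean z score of the list averaged 0.60 in FSL and -0.49 in FRL in cohort 1 (two-sided exact permutation p = 0.0143, adjusted over 48 tests 0.0574) and 0.10 in FSL and -0.03 in FRL in cohort 2 (exact permutation adjusted p = 0.871). In a fit added after seeing the data, with a mean for each line and cohort, 10 of 53 members had a slope on this score that passed, where 6.70% of all probesets passed. Higher with the score were Pde1b (0.37 log2 units per unit of score), Adcy5 (0.31), Prkar2b (0.14), Pde8b (0.13), Akap9 (0.07) and Pde6d (0.06). Lower with the score were Adcy6 (-0.07), Akap7 (-0.07), Adcy2 (-0.06) and Prkar1b (-0.04). With the score as a covariate the Adcy5 difference between the lines in P/FC was 0.09 and did not pass (limma adjusted p = 0.316), and that of Pde8b was -0.30 (adjusted p = 0.00158). Adcy3 (0.25, adjusted p = 0.0603), Adcy9 (-0.24, adjusted p = 0.115) and Pde2a (-0.07, adjusted p = 0.0853) in P/FC also no longer passed with it, nor did Pde1a in HIP (0.33, adjusted p = 0.0523). In HIP the score had no difference between the lines that passed, and Adcy5 was still called with it as a covariate.

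**Figure D5:**
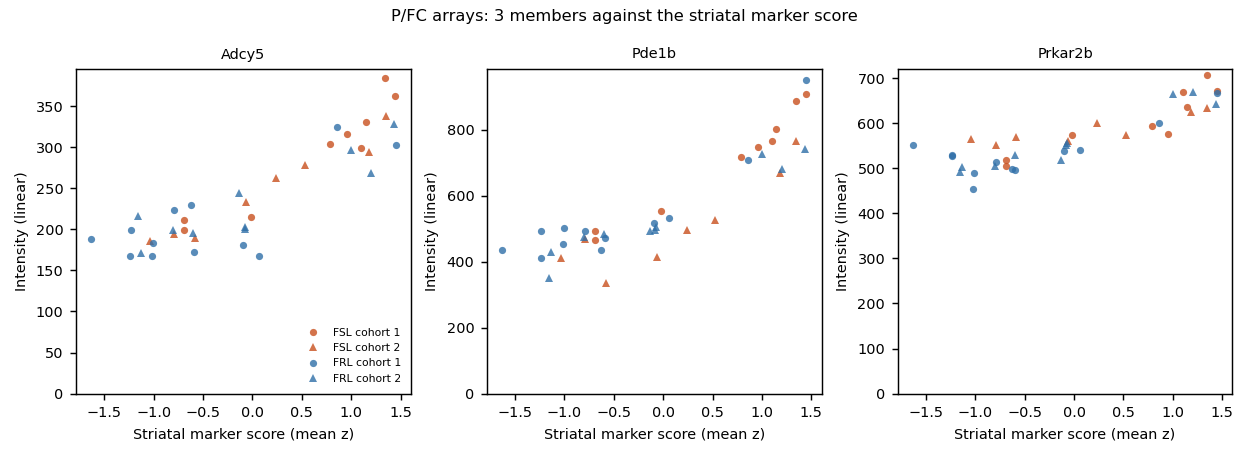
Intensity on a linear scale (y axis) of Adcy5, Pde1b and Prkar2b in each P/FC array against the mean z score of the striatal markers (x axis), by line and cohort. The fitted slopes are 0.31, 0.37 and 0.14 log2 units per unit of score, and FSL arrays of cohort 1 average 0.60 on the x axis against -0.49 in FRL.

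Other genes of the pathway that are not members were read from lists of receptors and G proteins, PKA inhibitors and substrates, other cyclic AMP sensors, and CREB partners. In P/FC, 5 were higher, 4 lower and 25 did not pass of 34 tested, and in HIP 3 were higher and 29 did not pass of 32, where 18.6% of all probesets were called in P/FC and 7.33% in HIP. Crtc1, a coactivator that carries the cyclic AMP signal to CREB, was lower in P/FC by -0.26 (SE 0.05, limma adjusted p = 0.000376) and at -0.07 in HIP (adjusted p = 0.306). Gnai1, an inhibitory G protein subunit, was higher in P/FC by 0.34 (adjusted p = 0.00177) and at 0.20 in HIP (adjusted p = 0.0637). Pkia, an inhibitor peptide of the PKA catalytic subunits, was higher in both regions (0.16, adjusted p = 0.00237 in P/FC, and 0.10, adjusted p = 0.0409 in HIP). In HIP the receptor Adcyap1r1, which stimulates the cyclases, was higher by 0.33 (adjusted p = 0.0234), and so was the CREB relative Atf2 by 0.31 (adjusted p = 0.0317). Adcyap1r1 was at 0.03 in P/FC (limma adjusted p = 0.847).

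Among known CREB target genes tested in P/FC, 2 were higher, 5 lower and 8 did not pass of 15, with a median of -0.32, where 8.86% of all probesets were lower. In HIP 3 were lower and 10 did not pass of 13, with a median of -0.15, where 4.13% of all probesets were lower. The immediate early genes Arc (-0.88 in P/FC and -0.52 in HIP), Fos (-0.68 and -0.63) and Per1 (-0.65 and -0.34), a clock gene, were lower in both regions. Nr4a1 (-0.52) and Egr1 (-0.32) were lower in P/FC, where Ppargc1a (0.26) and Vgf (0.20) were higher. These lists were chosen with earlier results of the same arrays known, and they describe counts and not a test of the list.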

How the data were processed

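RNA was measured on Affymetrix rat arrays. The authors used Rosetta Resolver to normalise across arrays, and the values they deposited are linear intensities with background subtracted, 1 for each probeset of each array, with no replicates pooled. Line, region and cohort were taken from the labels, and no array was left out. Tests here used log2 of the intensity, floored at 1. Control probesets (57) were left out, and the filter of the methods was applied within a region, so that a probeset had to exceed 30 in 50% or more of the FSL arrays and of the FRL arrays.

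The line comparison was run region by region in limma 3.58.1 (R 4.3.3), with group means by line and cohort, and the regions were compared in a fit over all 78 arrays that treated them as independent. The labelling batch, which the methods put in their model, is not in the labels and is not in these fits. Calls were made at a Benjamini-Hochberg adjusted p under 0.05 over all kept probesets. Ratios and marker scores were compared by exact permutation in SciPy 1.17.1. The procedure was tested on simulated data, and figures were drawn with matplotlib 3.10.9. The number of arrays limits the precision, and no read depth applies. The labels call the replicates of a group biological, and their numbers did not clearly pair the arrays.

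The members and the lists were chosen with earlier results of these data known. Named are all members called between the lines, up to 5 with the largest called region difference in each direction, the PKA subunits, Creb1, the members of smallest p for differences between cohorts or regions, and those next to the mean of 30. Of the brightest members, Prkar1b, Prkar1a and Prkacb had mean intensities of 2627, 2320 and 1790, which are not on a common scale between probesets. Gene symbols come from the array annotation, where 20826 probesets have 1 symbol, and 3 probesets that name Pde11a with another gene were not used. All 54 members were found in RefSeq by Entrez ID and 42 have a promoter entry. The alternatives were no variance moderation, no filter, a stricter filter (100), a looser one (30 in 1 of the lines), quantile normalisation, 16 added before the logarithm, separate cohorts, averaging the probesets of a gene, the replicate number as a block, and covariates (Gapdh and Actb ratios, striatal and astrocyte scores). A fit without 6 HIP arrays rich in choroid plexus markers, the astrocyte covariate and the striatal slopes were added after seeing the data.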

Additional observations from a re-analysis of the deposited data

Results flagged for a closer look

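Of 150 groups tested over the named members, 8 (5.33%) held 1 array far from the others, where chance flags about 1 in 20 groups, or 5%. The FRL groups of cohort 1, with 12 arrays each, were not screened in either region, so single values there are not listed. In FSL rats, Adcy8 in HIP of cohort 1 was 66.5 in replicate 2, with the next array at 45.03, and Pde1b in HIP of cohort 1 was 472.1 in replicate 3, with the next at 395.7. In P/FC of cohort 2, replicate 1 of the FSL rats was the highest for both Creb1 (180.3, next 159.1) and Crebbp (242.3, next 233.3). Prkacb in P/FC of cohort 1 was lowest in FSL replicate 9, at 1970 with the next at 2151. In FRL rats, Akap8l in HIP of cohort 2 was 385.8 in replicate 3 (next 319.4), Adcy8 in P/FC of cohort 2 was 54.8 in replicate 1 (next 38.96), and Adcy9 in HIP of cohort 2 was lowest in replicate 2, at 51.0 with the next at 66.4. The cause of these single values was not tested.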

How the results depend on the processing

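The 14 members called between the lines in P/FC became 1 with the Gapdh ratio, 9 with the Actb ratio and 1 with the astrocyte score as a covariate, and lay between 10 and 17 under the others. The 7 called in HIP became 3 with the mean over the probesets of a gene, 2 with the Actb ratio and 1 with the astrocyte score, and lay between 5 and 7 under the others. The members with an unadjusted p under 0.05 in both cohorts, 7 in P/FC, became 3 with the Gapdh ratio and 2 with the astrocyte score, and the 4 in HIP became 1 with the mean over probesets and 2 with the astrocyte score. The 37 called between the regions lay between 25 and 41, and the counts of 0 for differences between cohorts or regions in the line effect were 0 under every alternative. How the calls over all probesets moved under these settings is not given here. A fall in the members is therefore not shown to be particular to them.

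A change of sign occurred in 1 called line difference in P/FC, that of Prkar1a, which was 0.091 with the mean of its probesets, in 1 called in HIP, that of Pde1a (-0.013 with the Actb ratio), and in 1 called region difference, that of Crebbp (0.025 with the mean over probesets), each without a call. The other changes of sign were in differences that were not called. In P/FC, Creb1 was 0.0059 with the Actb ratio, 0.0054 with the striatal score and 0.026 with the astrocyte score. In HIP with the Actb ratio, Adcy3 was 0.011, Akap6 -0.041, Creb1 0.031, Pde6d -0.018 and Pde8b 0.020. With the Gapdh ratio, Pde6d was -0.015 and Prkar2b 0.014. With the astrocyte score, Crebrf was -0.029, Pde6d -0.0043, Pde8b 0.11, Prkaca -0.0055, Prkacb 0.043 and Prkar2a -0.010. With the mean over probesets, Crebrf was -0.010, Pde8b 0.0048 and Prkacb 0.14, and with quantile normalisation Prkacb was 0.0041. Without the arrays rich in choroid plexus markers, Adcy3 was 0.0029, Pde8b 0.042, Prkaca -0.0034 and Prkacb 0.0059. The causes were not tested.

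Replicate numbers did not clearly pair the arrays. The deviations of a HIP and a P/FC array of 1 number correlated above 0.1 in 10 of 39 pairs (median r 0.025). Those of an FSL and an FRL array did so in 10 of 17 pairs in P/FC (median r 0.15) and 8 of 17 in HIP (median r 0.087). With the number as a block, 11 members were called between the lines in P/FC, 7 in HIP and 38 between the regions, 7 and 5 had an unadjusted p under 0.05 in both cohorts of P/FC and of HIP, 0 differed between cohorts or regions in the line effect, and Prkar2b in HIP was 0.0091. In P/FC 5 calls were lost with the block (Adcy5, Adcy9, Akap8, Pde2a and Pde7a) and 2 gained (Akap13 and Pde4a), in HIP 1 was lost (Akap8) and 1 gained (Pde4c), and 4 members were then called in both regions (Akap8l, Pde1a, Pde4a and Prkar1a). Values near the minimum of 30, as for Adcy8 and Adcy9, are the least precise.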
